A study of Homo sapiens with 6 samples.

Results

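The microRNAs of the imprinted 14q32 region were examined in HuH7 cells, an established human hepatocellular carcinoma line, untreated or exposed to cisplatin, a chemotherapy agent whose platinum atom links DNA bases. The members are all human probes named after any of 45 miRNA numbers of the region, whatever their letter, copy or arm, which gave 80 of the 2019 human probes on the array. Total RNA of 3 control samples, which received no cisplatin, and of 3 cisplatin samples, which received 1 µg/ml for 24 h, was labelled with Hy5 and hybridised to 1-colour arrays with 1 spot for each human probe. HuH7 is a single cell line. Whether the samples of a group were separate cultures is not stated in the labels, and every p-value therefore reflects the spread of these 3 samples a group, which could be technical. The study's title links microRNAs to the anti-tumour effect of cisplatin, and the comparison made is cisplatin against no cisplatin.

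The region on the long arm of chromosome 14 lies between DLK1 and DIO3 and is expressed according to parent of origin. Its microRNAs are made from the maternal copy, from long noncoding transcripts that begin at MEG3 and continue through RTL1-antisense, the snoRNA region and MIRG, and they are processed hairpin by hairpin from these hosts. An upstream group lies near MEG3 and antisense to RTL1, a retrotransposon-derived gene that is active on the paternal copy, and a long downstream group runs from miR-379 to miR-656. The microRNAs are known for high levels in placenta, embryo and brain and for low levels in adult liver, and some hepatocellular carcinomas re-express them.

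Of the 80 probes, 16 belonged to the upstream and 64 to the downstream group. RefSeq's table for GRCh38.p14 held mature sequences for 79 of them, 67 under the array's own name and 12 whose array name lacks an arm and was read as the arm that bore that plain name in miRBase. miR-668 is given by name. Of the 79, 78 lay on chromosome 14, all within 214 kb on the plus strand, while miR-544b lay on chromosome 3 and is not part of the cluster. miR-544b was above the detection limit described below on 0 of 6 arrays and is kept in the counts of 80.

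The member that stood clear of background on every array was miR-494, and its hairpin (MIR494, chr14:101029634-101029714, plus strand, a noncoding RNA gene of the downstream group) is shown because no other member was detected on more than 3 arrays. Capitals mark the 3p arm in the hairpin and the seed, bases 2 to 8, in the mature sequences, the stretch that pairs with target mRNAs. The array calls the probe miR-494 (MIMAT0002816) without an arm, the older name of the 3p product, and the 5p arm was not analysed here.
MIR494 hairpin: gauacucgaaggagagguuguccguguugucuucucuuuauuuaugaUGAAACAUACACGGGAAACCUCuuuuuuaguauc
miR-494-3p: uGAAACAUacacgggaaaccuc
miR-494-5p: aGGUUGUCcguguugucuucucu

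A second set is shown because its members are close copies of each other. Their probes were dim. They passed the detection limit described below on sets of arrays that differed between copies. The miR-376 copies shown had control replicate 3 in common. miR-1185-1-3p and miR-1185-2-3p differ at U20C, counted from 1 at the 5′ end, with the base of miR-1185-1-3p first. miR-376c-3p and miR-376a-3p differ at A2U and U14A, with the base of miR-376c-3p first, so the first of these changes falls in the seed. miR-376b-3p has the seed of miR-376a-3p. miR-379-3p and miR-411-3p share a seed too and differ at U10C and U22C, with the base of miR-379-3p first. miR-1185-5p, made from 2 loci with the same mature sequence, was the other member that could be tested between the groups.
miR-1185-5p: aGAGGAUAcccuuuguauguu
miR-1185-1-3p: aUAUACAGggggagacucuuau
miR-1185-2-3p: aUAUACAGggggagacucucau
miR-376a-3p: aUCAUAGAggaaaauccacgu
miR-376b-3p: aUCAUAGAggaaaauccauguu
miR-376c-3p: aACAUAGAggaaauuccacgu
miR-379-3p: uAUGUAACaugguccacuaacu
miR-411-3p: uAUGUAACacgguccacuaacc

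The scanner gives the brightness of each spot in arbitrary linear units, called raw signal here, and the number of arrays limits the precision. A probe counted as detected where its raw signal exceeded a blank limit, computed from an array's own 925 blank spots as their mean plus 2 SD. These limits were 220.1, 239.8 and 228 on control replicates 1, 2 and 3 and 209, 247 and 227 on the cisplatin replicates. The blank spots of cisplatin replicate 2 had an SD of 17.97 against 10.6 to 13.4 on the other arrays, which raised its limit. Of all human probes, 24.8% to 36.6% were detected on control and 16.3% to 35.3% on cisplatin arrays. The liver microRNAs that mark HuH7 were detected on all 6 arrays (6 of 6 probes, both arms of miR-122 among them), the blood markers on all 6 in 0 of 4 probes and the neural ones in 0 of 2. The blood markers miR-142-3p and miR-451a were above the limit on 4 arrays each, miR-150-5p on 3 and miR-223-3p on 1, and the neural markers miR-124-3p and miR-9-5p on 2 and 1. Among endothelial and stromal markers 3 of 4 were on all 6, at a raw signal of at most 346. Some liver markers were little brighter, with 280 to 372 for miR-122-3p, 332 to 427 for miR-885-5p and 319 to 499 for miR-148a-3p. The other liver markers were at 1322 or more.

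Control arrays had 19, 21 and 26 of the 80 cluster probes above the limit, and cisplatin arrays had 20, 4 and 13. The means were 22 ± 3.61 and 12.3 ± 8.02 probes (SD, n = 3 each), and the groups overlapped, with cisplatin replicate 1 level with the controls. Without cisplatin replicate 2, the array with the wide blank SD, the cisplatin mean was 16.5. With a limit of the blank mean plus 3 SD both groups had a mean of 4.33 probes. As a share of the cluster this was 27.5% ± 4.51 for the controls and 15.4% ± 10.0 after cisplatin (SD, n = 3 each), beside means of 32.05% and 27.8% of all human probes. The cluster's share lay below that of all human probes on 5 of 6 arrays, control replicate 2 being the exception at 26.2% against 24.8%.

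Spots that are not labelled as human microRNA probes also passed the limit. Blank spots were above it in 2.59% of cases on average over the control arrays and 1.87% over the cisplatin arrays. The 24 spots labelled as negative controls were above it in 18.1% and 9.72%. The cluster's share was above that of the negative controls on 5 of 6 arrays, control replicate 1 being the exception, and the 2 sets overlapped over the arrays. Another 90 spots, labelled "No Probe" with no further explanation, were above it in 39.3% and 28.9%.

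**Figure D1:**
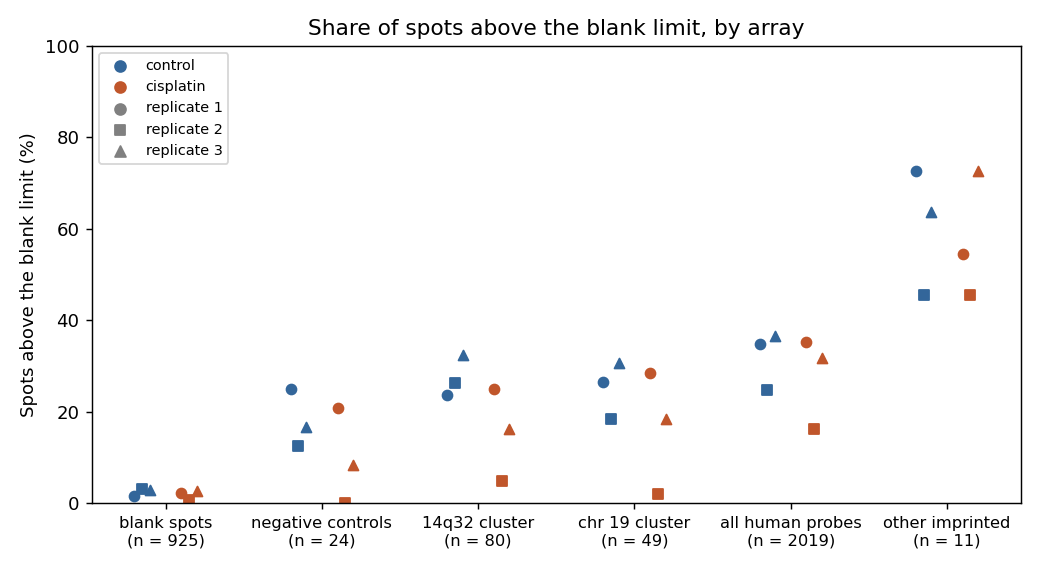
Share of spots above the blank limit (%, linear axis) on each of the 6 arrays, by kind of spot, with control in blue, cisplatin in orange and 1 marker shape per replicate number. The 14q32 cluster (5.0% to 32.5%) overlapped the negative controls (0% to 25.0%) and the chromosome 19 cluster (2.04% to 30.6%), and the 11 other imprinted probes lay between 45.5% and 72.7%.

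Most members came and went between arrays. Of the 80, 22 probes (27.5%) were above the limit on 0 arrays, 27 (33.75%) on 1, 20 (25%) on 2 and 10 (12.5%) on 3. On 4 or 5 arrays there were 0, and miR-494 alone was on all 6. Over all human probes the shares were 30.9% on 0 arrays, 27.7% on 1, 16.2% on 2 and 7.68% on 3. They were 3.27% on 4 and 2.23% on 5, and 243 of the 2019 human probes were on all 6. At least 1 array showed 58 of 80 (72.5%), where 69.1% of all human probes did so. All 3 control arrays showed 2 of 80 members, beside 14.6% of all human probes, and all 3 cisplatin arrays 1 of 80, beside 13.5%. The cluster was thus above the limit somewhere about as often as other probes and on all arrays of a group less often, a difference described here and not tested.

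Apart from miR-494, the 79 members had raw signals from 167 to 254, and none exceeded its array's limit by more than 23.9 units. Averaged over the 3 arrays of a group, 10 of these 79 lay above the mean limit in control, by at most 4.01 units, and 2 in cisplatin, by at most 1.15 units. The like counts over all human probes are not given. The order of the 79 members was little kept from array to array. Spearman's rho of their raw signals had a median of 0.093 over the 15 array pairs (range -0.13 to 0.38, highest between control replicate 1 and cisplatin replicate 1), against a median of 0.047 for the blank spots and 0.20 for the human probes that were not detected on all 6 arrays. The same array pair was also the highest for the blank spots, at 0.29, and for those human probes, at 0.44. These values describe spots that share a slide and are given without a test.

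**Figure D2:**
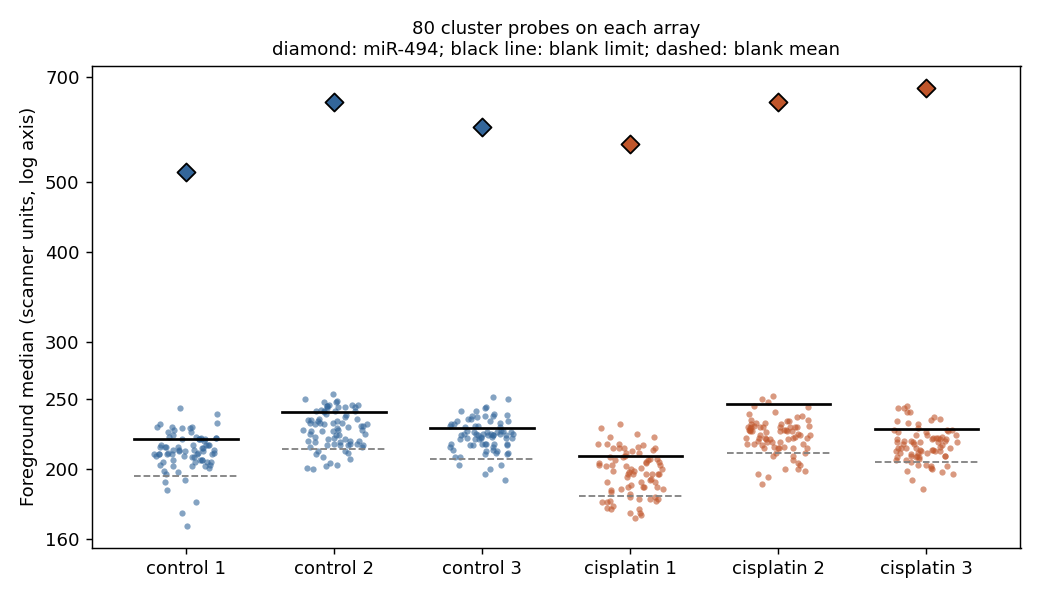
Raw foreground signal (scanner units, log axis) of the 80 cluster probes on the 3 control and 3 cisplatin arrays, with each probe as a point and miR-494 as a diamond. The black line is the blank limit and the dashed line the blank mean. miR-494 lies 297 to 450 units above its limits, while the other 79 probes lie between 167 and 254 around the limit.

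miR-494 exceeded the blank limit by 297, 406 and 368.9 units on control replicates 1, 2 and 3 and by 356, 399 and 450 units on cisplatin replicates 1, 2 and 3. Its raw signal averaged 587 ± 65.1 in control and 629 ± 57.8 after cisplatin (SD, n = 3 each). The lowest value was a control and the highest a cisplatin array, and the groups overlapped. Measured from the blank mean, these signals stood 26.6, 32.4 and 36.7 blank SDs up in control and 30.8, 24.2 and 42.0 in cisplatin arrays. The 5 spots next to it reached at most 248, and its local background was 128 to 164. On the normalized log2 scale the control arrays had a mean of 8.94 ± 0.068 and the cisplatin arrays 8.95 ± 0.071 (SD, n = 3 each). The log2 difference was 0.0020 (SE 0.063, limma adjusted p = 1, 95% interval -0.16 to 0.16), and the same-numbered pairs differed by 0.14, -0.14 and 0.

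miR-1185-5p was the other member tested, since it passed the limit on 3 of 3 control arrays, by 7.92, 1.17 and 2.94 units. Its raw signals were 228, 241 and 231 on control and 173, 230 and 208 on cisplatin arrays. On the normalized scale every cisplatin value lay below every control value, with means of 6.67 ± 0.079 and 6.33 ± 0.32 (SD, n = 3 each). The log2 difference of -0.34 did not pass (SE 0.17, limma adjusted p = 0.412, 95% interval -0.76 to 0.069). It was above the limit on 0 of 3 cisplatin arrays, where its signal is that of background, so no fold is given. The probe entered the test through the control arrays alone, a selection that favours a negative difference and groups that do not overlap, so neither counts as support. The pairs differed by -0.79, -0.087 and -0.16, and without cisplatin replicate 1 the difference was -0.16. Of its 8 neighbouring spots the brightest reached 1615, and their part in the result was not tested.

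**Figure D3:**
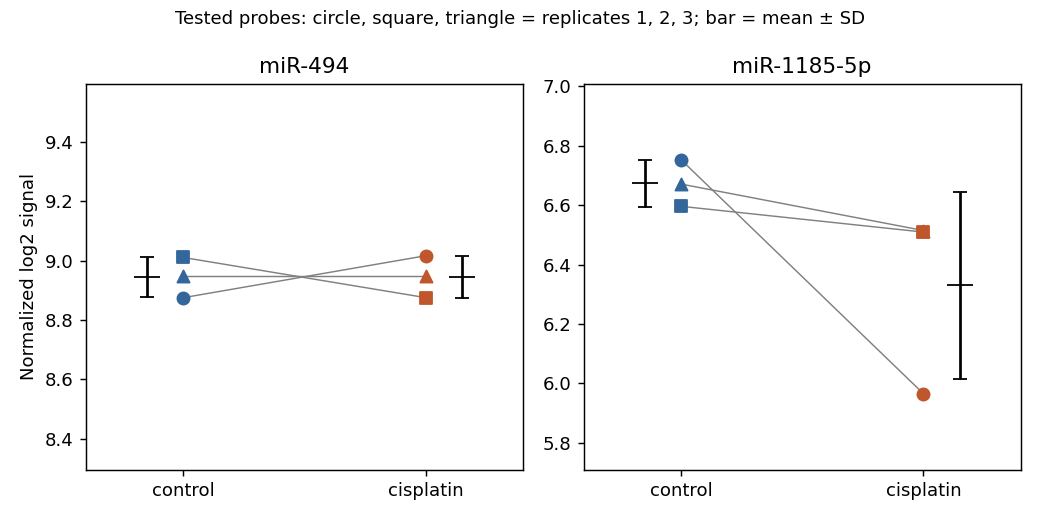
Normalized log2 signal of miR-494 (left) and miR-1185-5p (right) on control and cisplatin arrays, on axes of the same length, with grey lines joining same-numbered replicates and bars giving the mean ± SD (n = 3). miR-494 has means of 8.94 and 8.95, and miR-1185-5p has 6.67 and 6.33 with cisplatin replicate 1 far below the others.

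Among the upstream group, 12 of 16 probes passed the limit on at least 1 array and 3 of them on 3 arrays. miR-127-3p, which lies antisense to RTL1 and can direct cleavage of its mRNA, had raw signals of 213, 250 and 236 in control and 201, 218 and 243 in cisplatin arrays. It was detected on 2 control arrays and 1 cisplatin array, and the groups overlapped. miR-370, a GC-rich member at the downstream end of this group, gave 221, 244 and 226 in control and 190, 250 and 218 in cisplatin arrays, again with overlap. miR-665 gave 220, 224 and 232 in control and 209, 240 and 231 in cisplatin arrays, and was detected on 1 control array and 2 cisplatin arrays. On 2 arrays were miR-493-3p and miR-431-3p, each once per group. On 1 control array were miR-770-5p, which lies in an intron of MEG3, miR-493-5p, miR-337-3p, miR-433, miR-127-5p, miR-432-3p and miR-136-5p. miR-431, miR-433, miR-127, miR-432 and miR-136 are the hairpins opposite RTL1.

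Among the downstream group, 46 of 64 probes passed the limit on at least 1 array, 8 of them on 3 arrays or more. Beside miR-494 and miR-1185-5p these were miR-379-3p, miR-380-5p, miR-654-3p, miR-1185-1-3p, miR-382-3p and miR-369-3p. miR-380-5p, studied as a repressor of p53, gave 223, 249 and 224 in control and 213, 221 and 200 in cisplatin arrays. miR-382-3p gave 243, 216 and 233 in control and 222, 230 and 221 in cisplatin arrays. miR-654-3p gave 225, 227 and 235 in control and 222, 214 and 223 in cisplatin arrays. Its control arrays were higher throughout on the raw scale, but on the normalized scale the groups overlapped. miR-369-3p, the most AU-rich member, gave 229, 246 and 224 in control and 197, 229 and 235 in cisplatin arrays.

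Of the 20 members on 2 arrays, 3 were on control arrays only, all in replicates 1 and 2. These were miR-299-3p, miR-380-3p and miR-382-5p. Another 2 were on cisplatin replicates 1 and 3 only, miR-758-5p and miR-377-3p. The other 15 were on 1 array of each group. With miR-493-3p and miR-431-3p they were miR-409-3p, miR-409-5p, miR-376a-3p, miR-376c-3p, miR-323a-5p, miR-541-3p, miR-541-5p, miR-656, miR-379-5p, miR-410, miR-369-5p, miR-495-3p and miR-412.

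Of the 27 members on 1 array, 22 were on a control array and 5 on a cisplatin array. The like split over all human probes is not given, and the limit of cisplatin replicate 2 was raised. The negative controls, too, passed the limit less often on cisplatin arrays, at a mean of 9.72% against 18.1% in control. Control replicate 3 supplied 12 of them, among them miR-496, miR-668, miR-655, miR-329, miR-485-5p, miR-487b, miR-376b-3p, miR-758-3p and miR-411-3p from the downstream group. Control replicate 2 supplied 6, with miR-1197, miR-495-5p, miR-381-3p, miR-485-3p and miR-323a-3p from that group. Control replicate 1 supplied 4, with miR-154-5p from it. The 5 on a cisplatin array were miR-539-5p, miR-299-5p, miR-1185-2-3p, miR-323b-5p and miR-134. miR-134, known for acting in dendrites of neurons, had raw signals of 213, 201 and 211 in control and 174, 229 and 234 in cisplatin arrays.

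**Figure D4:**
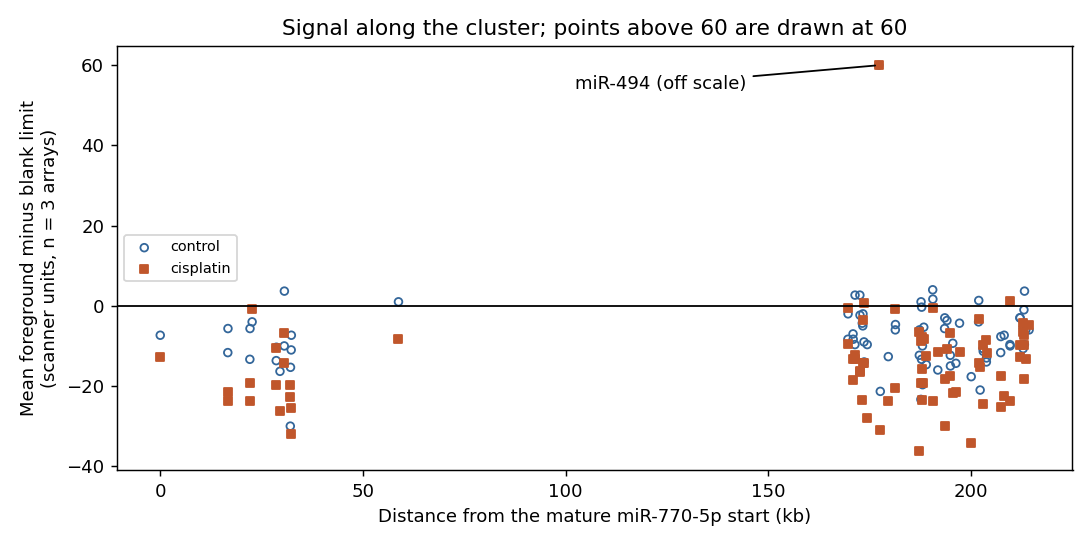
Mean raw signal minus the blank limit (scanner units, n = 3 arrays) of the 78 chromosome 14 probes against their distance (kb) from the start of mature miR-770-5p, with control as open circles and cisplatin as filled squares. The upstream group lies at the left and the downstream group at the right, and miR-494, drawn at the top because its value is off the axis, is the only probe far above 0. The other probes lie between -36.2 and 4.01.

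Both ends of the region had a like share of detected probes. At least 1 array detected 75% of the upstream and 71.9% of the downstream probes, and the 22 never detected were 4 upstream and 18 downstream probes. In 27 hairpins both arms had a probe, and in 7 of them both arms were above the limit on the same array at least once. These were miR-127, miR-379, miR-380, miR-382, miR-409, miR-495 and miR-541. miR-380 showed both arms together on 2 arrays and the other 6 on 1 array. Hairpins with neither arm detected on any array numbered 0. The like shares over all human hairpins are not given, so these counts are description and say nothing of the arms together.

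Close copies, all of them dim probes, passed the limit on sets of arrays that differed, though the miR-376 copies shared control replicate 3. The order of such dim members was little kept from array to array. Whether the patterns of the copies differ beyond this spread was not tested. miR-1185-1-3p, with raw signals of 212, 244 and 237 in control and 214, 244 and 223 in cisplatin arrays, was above the limit on 3 arrays. miR-1185-2-3p, which differs from it at U20C, gave 205, 212 and 223 in control and 177, 253 and 218 in cisplatin arrays and was above the limit on cisplatin replicate 2 alone. On that array miR-1185-1-3p lay -2.53 and miR-1185-2-3p 6.47 units from the limit, beside a blank SD of 17.97. Levels of different probes are not comparable, so only the pattern over arrays is described.

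In the miR-376 family, miR-376a-3p gave 214, 233 and 244 in control and 215, 227 and 214 in cisplatin arrays. miR-376c-3p gave 205, 226 and 239 in control and 189, 234 and 240 in cisplatin arrays. Each was detected on control replicate 3 and on 1 cisplatin array, replicate 1 for miR-376a-3p and replicate 3 for miR-376c-3p. miR-376b-3p gave 180, 216 and 233 in control and 182, 233 and 210 in cisplatin arrays and was detected on control replicate 3 only.

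miR-379-3p gave 222, 244 and 216 in control and 202, 220 and 232 in cisplatin arrays and was detected on 3 of 6. miR-411-3p gave 213, 221 and 229 in control and 208, 216 and 203 in cisplatin arrays and was detected on 1. Over all 79 members with a sequence there were 71 distinct seeds, of which 8 were shared by a pair each. In 3 further pairs with a shared seed 1 member was detected and the other was not. miR-381-3p was on 1 array and miR-300 on 0, miR-541-3p on 2 and miR-654-5p on 0, and miR-485-3p on 1 and miR-539-3p on 0. miR-494-3p shared its seed with no other member.

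Apart from miR-494, base composition was nearly unrelated to the members' signal, which lay around the blank limit. Their mature sequences had a median GC content of 45.5% (range 23.8% to 72.7%), against 50% over the 1700 human probes with a sequence and 55% over those of them detected on all 6 arrays. miR-494 itself stood at 45.5%. Over the other 78 members with a sequence, Spearman's rho between GC content and mean raw signal was 0.042. Over all 1700 probes, the bright ones included, it was 0.20. The 78 members span a far narrower range of signal, so these values are not directly comparable. These are descriptions across probes, which are not independent replicates.

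For cisplatin against control, 2 of the 80 members could be tested, those with 3 of 3 arrays above the limit in a group, and 0 of the 2 passed a limma adjusted p of 0.05, as 1 of 324 probes tested did (0.309%). At an unadjusted p under 0.05 there were 0 of the 2, against 15.7% of all tested probes, 7.72% lower and 8.02% higher. The median log2 difference of the 2 was -0.17, beside -0.012 for all tested probes, and it is set by miR-1185-5p.

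A fit of all 2019 human probes without the detection filter gives a value for every member, but mostly of signals at background. There 0 of 80 passed (smallest limma adjusted p = 0.941), as 0 of all 2019 did. At an unadjusted p under 0.05 there were 3 of 80 (3.75%), where 4.80% of all human probes lay. Lower were 2 of 80 members, where 2.03% of all human probes were, and higher was 1 of 80, where 2.77% were. The members' log2 differences ranged from -0.38 to 0.24, with SEs of 0.10 to 0.22 for members other than miR-494, and the median was -0.048, beside -0.0041 for all human probes. Negative were 51 of 80 (63.8%), against 51.5% of all human probes and 59.2% of the 49 probes of the chromosome 19 cluster. In the upstream group 12 of 16 were negative, with a median of -0.057, and in the downstream group 39 of 64, with a median of -0.037.

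**Figure D5:**
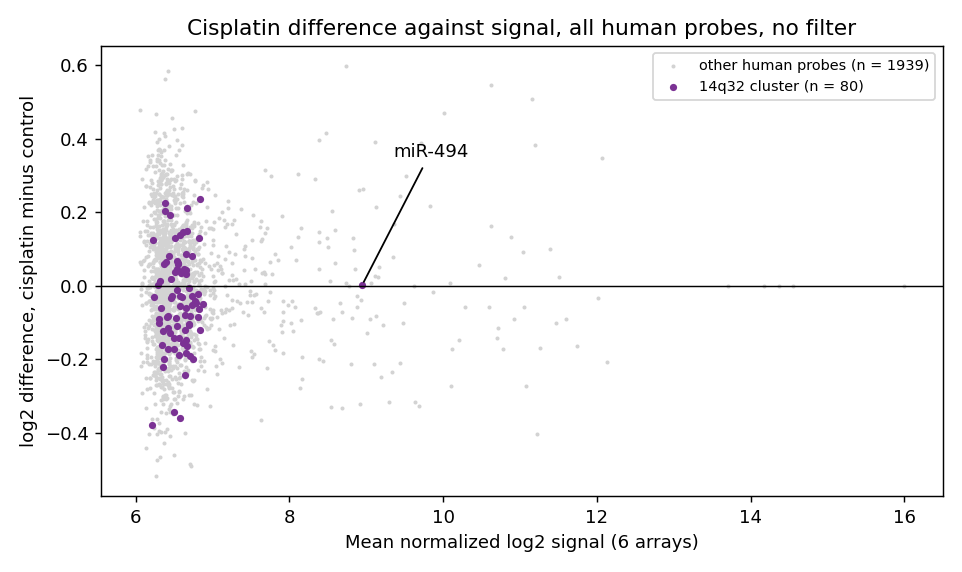
The log2 difference (cisplatin minus control) of each human probe against its mean normalized log2 signal over the 6 arrays, from the fit without a filter, with cluster probes in purple and the others in grey. The cluster probes spread from -0.38 to 0.24 at the dim end, among other dim probes, and miR-494 lies at 0.0020.

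The 3 members at an unadjusted p under 0.05 are named after their values were seen. They were miR-376c-5p, miR-381-5p and miR-377-3p. miR-376c-5p had raw signals of 210, 231 and 210 in control and 182, 204 and 188 in cisplatin arrays, and a log2 difference of -0.38 (SE 0.12). miR-381-5p had 215, 232 and 224 in control and 180, 211 and 202 in cisplatin arrays, and a log2 difference of -0.36 (SE 0.12). Neither was above the limit on any of the 6 arrays, so these are differences between background signals and no fold is given. miR-377-3p had 215, 226 and 217 in control and 217, 236 and 233 in cisplatin arrays, with a difference of 0.24 (SE 0.10), and was above the limit on cisplatin replicates 1 and 3.

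Groups that did not overlap on the normalized scale were found for 7 of 80 members in the lower direction (8.75%), where 4.95% of all human probes showed this. With miR-1185-5p, miR-376c-5p and miR-381-5p they were miR-136-3p, miR-1197, miR-376b-5p and miR-487a, chosen for naming after their values were seen, of which miR-1197 was detected on 1 control array and the others on 0. In the higher direction there were 3 (3.75%), where 5.60% of all human probes showed this, namely miR-300, miR-539-3p and miR-377-3p. Neither miR-300 nor miR-539-3p was detected on any array. Within same-numbered pairs, 11 members were lower and 8 higher after cisplatin in all 3, where 13.1% and 13.3% of all human probes were.

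The median raw signal of the 80 members was lower in the cisplatin array of each pair by 14, 5 and 6.5 units, while the median of the blank spots was lower by 12, 2 and 1. The members' median thus fell by 2, 3 and 5.5 units more than that of the blanks. The medians of all human probes were lower by 12, 1 and 4 and those of the chromosome 19 cluster by 6, 7 and 8. The median of the negative controls changed by -16.5, 2.5 and 1.5 units. The part of the background in the members' lower values was not tested.

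In the authors' deposited table, which leaves out dim probes, 34, 28 and 39 of the 80 members were listed for control and 30, 20 and 23 for cisplatin arrays. As shares these were 42.5%, 35% and 48.8% in control and 37.5%, 25% and 28.8% in cisplatin arrays, beside 48.9%, 34.6% and 48.0% and 46.2%, 41.2% and 43.3% of all human probes. Each pair had fewer members listed in its cisplatin array. In the authors' deposited table miR-494 was the only member listed on all 6 arrays. Its values were 322, 403 and 426 in control and 357, 435.2 and 482.5 in cisplatin arrays, higher in the cisplatin array of each pair. In a fit of these values its log2 difference was 0.15 (limma adjusted p = 0.880), beside a median of 0.11 over the 408 probes fitted. The authors' table listed miR-665 and miR-1185-1-3p on 5 arrays each.

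Other imprinted microRNAs were compared by detection, and the chromosome 19 cluster also by the cisplatin differences already given. The chromosome 19 cluster, another large imprinted group, known from placenta, had 0 of 49 probes on all 6 arrays and 3 of 49 tested. Of 11 probes from other imprinted loci, 5 were on all 6 arrays. These were miR-483-3p from an intron of IGF2, miR-675-5p from H19, miR-335-5p from MEST, miR-296-5p from the GNAS region, and miR-1247-3p, which lies beside DIO3 at the far end of the 14q32 domain and is not among the members. miR-1247-3p had raw signals from 235 to 279 over the 6 arrays, while miR-1247-5p was detected on 0.

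The tested probes outside the cluster whose deviations over the 6 arrays were most like those of miR-494 were miR-339-5p, miR-335-5p and miR-128, with Pearson's r of 0.91, 0.90 and 0.85. For miR-1185-5p they were miR-155-5p, miR-7-5p and miR-1228-3p, with r of 0.98, 0.94 and 0.93. These are the best of all tested probes over 6 arrays and describe likeness only.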

How the data were processed

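The arrays comprised 3 control and 3 cisplatin samples. Each deposited scanner file gives linear intensity, which its column names (per the file headers) describe as pixel medians and means for every spot and its surroundings. No scanner model or image software is named in the sources at hand. The series' design text counts fewer human probes than the scanner files hold. The authors' deposited table of intensity values has no stated processing and was used only as an alternative. Its number of members listed on each array equals that above a blank limit from blank spots trimmed by 5% at each end.

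Spot medians were background-corrected by normexp (offset 50), and the human probes were then quantile-normalized and log2-transformed (limma 3.58.1, R 4.3.3). The offset shrinks the folds of dim probes. Groups were compared with lmFit and eBayes over the 324 probes detected on all 3 arrays of a group, with Benjamini-Hochberg adjustment at 0.05. Figures used matplotlib 3.10.9. The fit was also run on simulated data, with noise drawn independently for each spot and array and the set of tested probes kept. Such a run cannot check the filter or deviations shared between samples, and no support is drawn from it.

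Same-numbered samples deviated together from their group means (correlations 0.44, 0.24 and 0.20), but control replicate 3 with cisplatin replicate 2 gave 0.23. The labels state no pairing, so differences within same-numbered pairs are given as description only. The main fit ignores pairing, and a fit with a replicate block was an alternative. Controls sat at slide positions 3, 1 and 3 and cisplatin samples at 4, 2 and 4, so slide position and group cannot be told apart. The members and lists were chosen with earlier results of these data known. Named are all members tested or detected on at least 1 array, members of a pair with a shared seed if either was detected, and the 3 probes most like each tested member. Other members named are said to be chosen after their values were seen. Sequences are from RefSeq (GRCh38.p14).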

Additional observations from a re-analysis of the deposited data

How the results depend on the processing

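The number of members past the threshold was 0 in the main analysis and under all 19 alternatives that refit the comparison. miR-1185-5p lay between -0.64 and -0.16 in the 16 alternatives that tested it (limma adjusted p from 0.188 to 0.941), on the same arrays and mostly after the same selection through the control arrays, so its sign says nothing of stability. miR-494 lay between -0.054 and 0.15, with limma adjusted p from 0.690 to 1. Its difference near 0 turned negative without background correction (-0.015), with cyclic loess (-0.054), with the 75th percentile (-0.0071) and with pixel means (-0.028), and leaving out 1 array gave -0.035 to 0.037, below 0 without control replicate 1 or without cisplatin replicate 1.

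The count of detected members depends on the limit. With mean plus 3 SD it was 4.33 in control and 4.33 in cisplatin arrays, with the trimmed blank limit 33.7 and 24.3, with pixel means 10.0 and 7, and with foreground minus local background 16.3 and 13.7. Leaving out 1 array gave 20 to 23.5 in control and 8.50 to 16.5 in cisplatin arrays. The median of the members tested was -0.32 with plain subtraction and 0.0020 where miR-494 alone was left, for probes detected on all 6 arrays and with mean plus 3 SD. It was 0.049 with the authors' values, where miR-494, miR-665 and miR-1185-1-3p were fitted, beside a median of 0.11 over all probes fitted there. Leaving out 1 array gave -0.22 to -0.10.

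Over all tested probes 1 passed. It was 3 without background correction, 3 with median scaling, 4 with cyclic loess, 2 with the 75th percentile, and 0 without normalization, without any filter, for probes above the limit on all 6 arrays, with mean plus 3 SD, with pixel means and with the authors' values. It was 0 with the replicate block too, which changed no call of a member. Leaving out 1 array gave 0 to 3, with 3 without cisplatin replicate 2. In that order, these limma fits with 0 calls had 33, 97, 39, 40, 39, 30 and 57 probes whose unadjusted p was under 0.05. The cause of these changes was not tested.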
